A study of Arabidopsis thaliana with 18 samples.

Results

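The data described here are the transcript levels and the splicing of 10 genes for auxin response factors (ARFs) of Arabidopsis thaliana, ARF1 to ARF8, ARF16 and ARF19. Their identifiers, in that order, are AT1G59750, AT5G62000, AT2G33860, AT5G60450, AT1G19850, AT1G30330, AT5G20730, AT5G37020, AT4G30080 and AT1G19220. They were picked by gene identifier, with earlier results of these data in view, from 33602 genes in the deposited gene counts, and all 10 passed the filter on low counts. The 13 other genes of the family are not members and serve only for comparison. The value known to have been in view was the intron I002 of ARF1 after 1 h in the cold. For this reason the ARF1 comparisons of genotypes at that time, and every comparison of that intron that uses libraries of that time, are given as a description with no test.

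The libraries came from whole plants, aged 9 days, of wild type Col (WT) and of the gemin2 mutant, which the authors' tables call gemin2-1. All plants grew on agarose medium in continuous white light at 22 °C. Of the 6 groups, 2 stayed there, 2 were harvested 1 h after a move to 10 °C, and 2 were harvested 24 h after it. Each of the 6 groups holds 3 libraries, 18 in all, and the labels do not say how many plants went into each. GEMIN2 helps to load the ring of Sm proteins onto the small nuclear RNAs of the spliceosome. Its own transcript lay at 14.7, 11.1 and 21.1 CPM (gene counts scaled to a common library total) in WT at 22 °C, after 1 h and after 24 h, and at 4.20, 2.98 and 5.31 CPM in gemin2. All gemin2 libraries lay below all WT libraries of the same condition, and the mutant kept some GEMIN2 transcript.

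Auxin binds receptors of the TIR1/AFB family, which then mark Aux/IAA proteins for destruction. Aux/IAA proteins hold ARFs in check together with corepressors of the TOPLESS family, so that their loss frees ARFs bound to promoters of auxin genes. ARF5, ARF6, ARF7, ARF8 and ARF19 are classed as activators, and ARF1, ARF2, ARF3, ARF4 and ARF16 as repressors. Several ARF transcripts are themselves cut under the guidance of small RNAs, miR160 for ARF16, miR167 for ARF6 and ARF8, and small RNAs from the TAS3 transcript for ARF2, ARF3 and ARF4.

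The small RNAs and the sites they pair with are shown because they divide the members into groups that the choice of genes did not use. The sequences were read from the RefSeq TAIR10.1 genome at the annotated positions, 5′ to 3′. In the small RNAs the capitals mark bases 2 to 8, the seed, and in the sites they mark the bases that pair by Watson-Crick rules. The mature miR160a lies at chr2:16340282-16340302 on the plus strand and miR167a at chr3:8108090-8108110 on the plus strand.
miR160a: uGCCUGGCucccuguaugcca
ARF16 site: gGGuuUACAGGGAGCCAGGCA
miR167a: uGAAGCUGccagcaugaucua
ARF6 site: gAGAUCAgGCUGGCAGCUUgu
ARF8 site: UAGAUCAgGCUGGCAGCUUgu
The ARF16 site, at chr4:14704141-14704161 on the minus strand, had 3 mismatches to miR160a, and the best site in each of the other members had 8 or 9. The ARF8 site, at chr5:14633841-14633861 on the plus strand, had 3 mismatches to miR167a. The ARF6 site, at chr1:10686478-10686498 on the minus strand, had 4, and the best site in each of the other members had 7 to 9. All 3 sites lie in coding sequence.

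For TAS3 the transcript was searched in windows of 21 bases for the one that pairs best with ARF2, ARF3 and ARF4 together. That window, at chr3:5862205-5862225 on the plus strand, had 4 mismatches summed over the 3 genes, and no other window had as few. It is not an annotated small RNA, so its capitals mark bases 2 to 8 of the window and not a known seed.
TAS3 window: uUUCUUGAccuuguaagaccc
ARF2 site: GGGUCUUgCAAGGUCAAGAAu
ARF3 site: GGGUCUUgCAAGGUCAAGAAA
ARF4 site: GGGUCUUgCAAGGUCAAGAAA
The ARF3 site, at chr2:14325941-14325961 on the minus strand, and the ARF4 site, at chr5:24309507-24309527 on the minus strand, are the same 21 bases. The ARF2 site lies at chr5:24913262-24913282 on the plus strand. Over all windows of TAS3 the fewest mismatches were 1 for ARF3, 1 for ARF4 and 2 for ARF2, and 4 or 5 for each of the other members. A match of letters describes the sequence and not the cutting of the transcript.

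Library totals ran from 15675913 to 53766089 gene counts. In 4 libraries the counts differed from both others of the group by over 2 times the chi-square value between those others. They are C of gemin2 at 22 °C, A of gemin2 after 1 h, A of gemin2 after 24 h and A of WT after 24 h. The first of these held 17.55% of its counts in chloroplast genes, against 0.232% to 3.17% in the other 17. Levels are CPM scaled by trimmed mean of M values (TMM) factors, and tests are edgeR's quasi-likelihood tests with Benjamini-Hochberg adjustment over all features tested, with a threshold of 0.05. No source used here ties the libraries to separate cultures, and the spread behind each p-value may be technical.

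The members span a wide range of levels. Per kilobase of exon, as RPKM (CPM divided by exon length), ARF2 was the highest in each of the 6 groups, with means of 50.9 to 86.3 RPKM. ARF19 was the lowest in each, with 2.06 to 3.83 RPKM, and ARF1 lay between them with 14.9 to 25.6 RPKM. ARF6 ran from 14.3 to 31.0 RPKM and ARF16 from 4.44 to 6.72 RPKM. In whole plants, fewer cells of a type and less RNA per cell cannot be told apart. ARF7 shares part of its locus with AT5G20720, and the library kit does not mark strand, so its counts may hold reads of that gene.

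**Figure D1:**
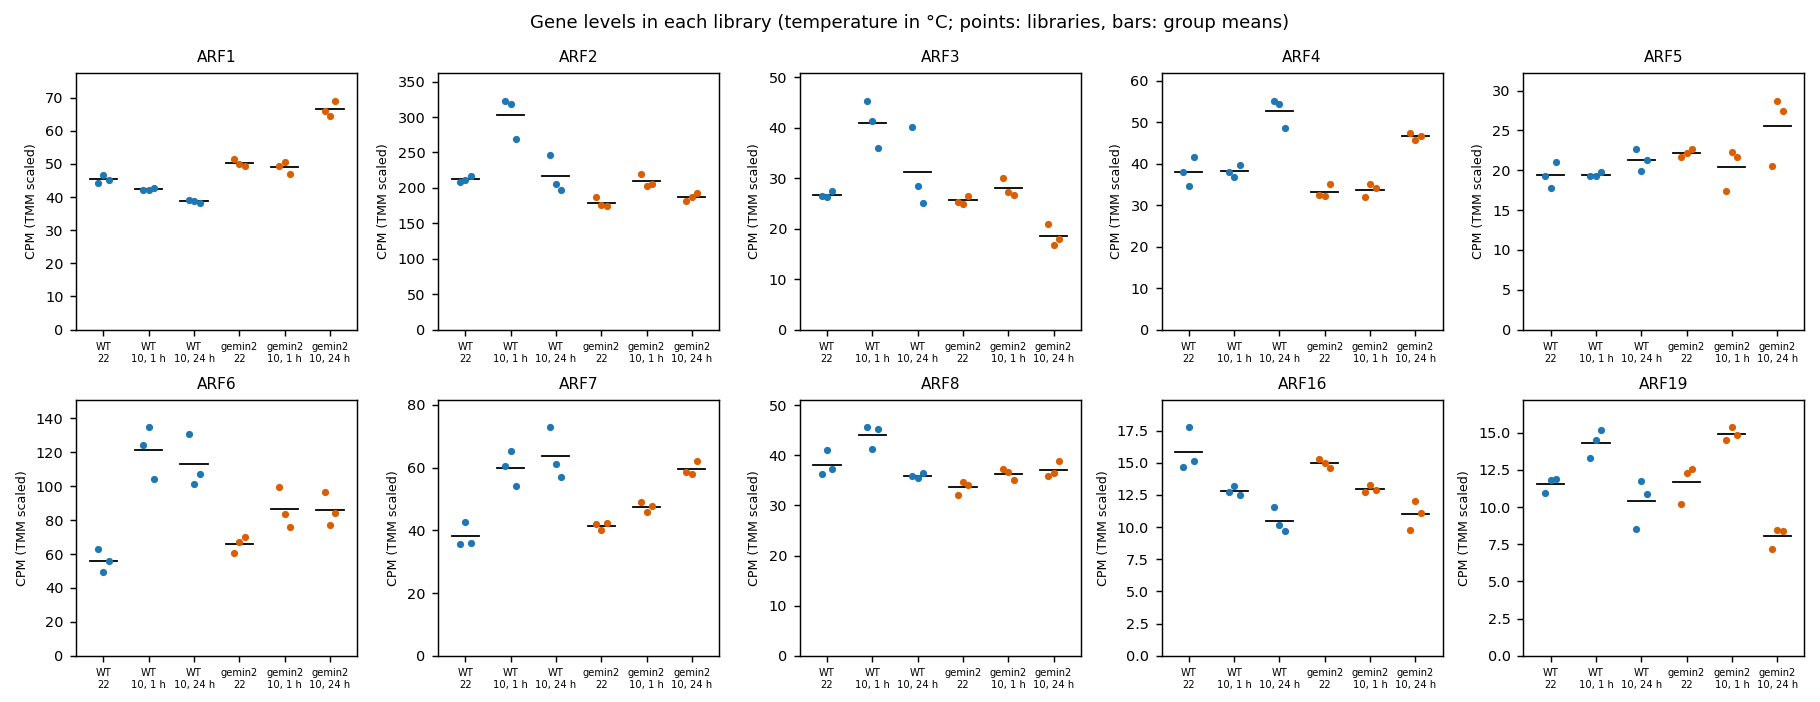
Level of each gene in each library, in CPM scaled by TMM factors (vertical axis, from 0, with its own scale per gene), by genotype, temperature and time in the cold. Points are libraries and bars are means of 3. ARF1 in gemin2 after 24 h at 10 °C sits at 64.5 to 69.1 CPM, above every other library, while ARF6 in WT is higher in both cold groups than at 22 °C.

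The clearest splicing difference among the members was in ARF1, a repressor that acts with ARF2 in growth and in the timing of leaf senescence. Reads in its intron I002, which lies ahead of the start codon, were near 0 in WT and frequent in gemin2. I002 spans 764 bases at chr1:21979620-21980383 on the plus strand (TAIR10) and is intronic in all 4 RefSeq transcripts of the gene. The 3 WT libraries held 3, 1 and 1 counts of it at 22 °C, 2, 5 and 2 after 1 h, and 0, 4 and 2 after 24 h. The 3 gemin2 libraries held 41, 41 and 35 counts at 22 °C, 126, 76 and 98 after 1 h, and 140, 192 and 323 after 24 h. No gemin2 library overlapped a WT library at any time.

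As a share of the ARF1 gene count, the intron stood at 0.196% ± 0.132 (SD, n = 3) in WT at 22 °C and at 2.54% ± 0.0948 in gemin2. After 1 h the shares were 0.233% ± 0.106 and 5.02% ± 0.94, and after 24 h they were 0.143% ± 0.124 and 11.9% ± 2.69. The library of WT with no count after 24 h allows a share of up to 0.398%. In 1206 of 187089 pairs compared, an intron count was above that of its gene, so gene counts need not hold intron reads. A share is thus a ratio of the intron count to the gene count. Relative to the gene's own count, the log2 difference between gemin2 and WT was 3.63 ± 0.46 (SE) at 22 °C, with an adjusted p of 1.607e-05 in edgeR's test. After 24 h it was 6.07 ± 0.38, with an adjusted p of 1.24e-11, and after 1 h it was 4.38 ± 0.37 and was not tested. The intron met the minimum of counts for a test only through gemin2, and that filter favours higher values in gemin2. The p-values between genotypes at 22 °C and after 24 h are thus given as a description.

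The WT side of these ratios rests on 5, 9 and 6 counts over 3 libraries at 22 °C, 1 h and 24 h. From the pooled counts, the share in gemin2 was 12.9 times that in WT at 22 °C, with an exact 95% interval of 5.38 to 40.5. The ratio was 21.5 (11.2 to 47.5) after 1 h and 71.3 (32.6 to 195) after 24 h. These intervals cover counting error only. The intron passed the minimum of 10 counts on its gemin2 libraries alone.

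Within gemin2 the share rose with 24 h in the cold, by 2.23 ± 0.24 on the log2 scale with an adjusted p of 5.806e-07 in edgeR's test, and the 24 h libraries did not overlap those at 22 °C. Between 22 °C and 1 h in gemin2 the log2 difference was 0.98 ± 0.24, given with no test. In WT the difference between 24 h and 22 °C was -0.21 ± 0.77, with an adjusted p of 0.9435. The test of whether the 24 h change differed between genotypes gave 2.43 ± 0.88 with an adjusted p of 0.2139 and is not a call.

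**Figure D2:**
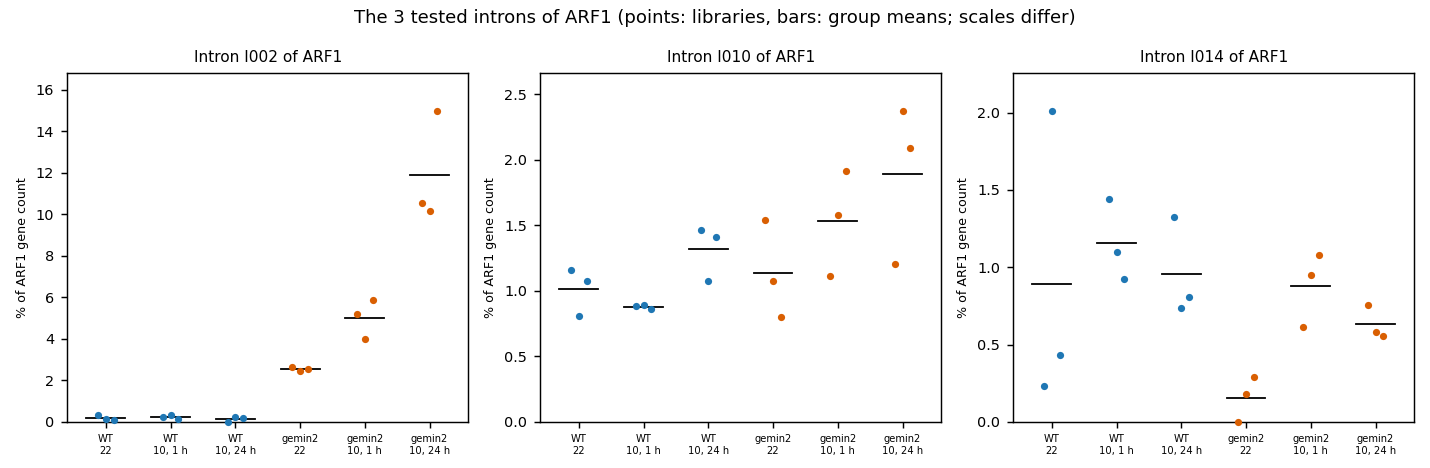
Share of the ARF1 gene count in each of its 3 tested introns (vertical axis, percent, from 0, own scale per panel) in every library. Points are libraries and bars are means of 3. For I002 the gemin2 libraries sit at 2.44% to 15.0% and the WT libraries at 0% to 0.348%, whereas the genotypes overlap in I010 and I014.

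Outside I002 the summed reads in ARF1 introns were similar in level across groups. Its 13 other introns, summed, held 3.54% to 5.35% of the gene count as group means in both genotypes. With I002 included, the sum was 4.52% in WT and 6.09% in gemin2 at 22 °C, and 5.29% and 17.2% after 24 h. Of these 13, I010 and I014 passed the count minimum. After 24 h I010 held 1.46%, 1.08% and 1.41% of the gene count in WT and 1.21%, 2.38% and 2.09% in gemin2, so the genotypes overlapped. After 1 h they did not, with 0.858% to 0.895% in WT and 1.11% to 1.92% in gemin2, given as a description. I014 rose in gemin2 between 22 °C and 1 h, by 2.44 ± 0.67 on the log2 scale with an adjusted p of 0.02482 in edgeR's test. That change started from 0, 3 and 4 counts at 22 °C and reached 15, 18 and 18. It lost its call without A (adjusted p = 0.1295) or B (0.07742) of gemin2 at 22 °C, and without B (0.0646) or C (0.07153) of gemin2 after 1 h, with edgeR. I014 met the minimum of 10 counts only through the libraries of gemin2 after 1 h, the group called higher. The call and its p-value are thus given as a description.

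The ends of the ARF1 introns are shown because I002 and I010 have letters at the start that are uncommon among introns. Each start is given as 3 bases of exon and 9 of intron, with the first 6 bases of the intron in capitals, and each end as the last 20 bases, with the last 3 in capitals.
I002 start: aagGTTCGAttt
I002 end: tcttttgttttgttgccCAG
I010 start: aagGTCTCAtca
I010 end: gacatatcttctattatCAG
I014 start: ctgGTATTCtgt
I014 end: tttattgatgctctcttCAG
I010 lies at chr1:21982194-21982418 and I014 at chr1:21982996-21983071, both on the plus strand. Of 117671 introns of the deposited intron list that were read from the genome, 239 (0.203%) begin with the same 6 bases as I002. The shares were 0.0722% for I010 and 0.517% for I014. One other tested intron of a member begins as I002 does, I003 of ARF7 at chr5:7017163-7017240 on the minus strand.
ARF7 I003 start: aagGTTCGAttg
ARF7 I003 end: aatgttaaattttcctaCAG
That intron held 0.287%, 1.32% and 0.809% of the ARF7 count in WT at 22 °C and 0.869%, 0.897% and 0.171% in gemin2. After 24 h it held 0.568%, 0.359% and 0.747% in WT and 0.507%, 1.23% and 0.980% in gemin2. The genotypes overlapped at both times, and it passed the test in none of the 9 comparisons.

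The bin E003 ends at the base before I002, at chr1:21979424-21979619, and is exonic in 3 of 4 RefSeq transcripts of ARF1. At 22 °C it held 10.2%, 6.58% and 7.62% of the gene count in WT and 3.15%, 5.55% and 3.87% in gemin2. The libraries did not overlap, but the log2 difference of -0.95 ± 0.26 had an adjusted p of 0.05439 in edgeR's test and is not a call.

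Of 112 introns listed for the members, 8 had enough counts to test, 3 in ARF1, 4 in ARF2 and 1 in ARF7. For genotype, I002 was the only one called at 22 °C and the only one after 24 h. After 1 h, where no intron of ARF1 was tested, neither the 4 in ARF2 nor the 1 in ARF7 were called. I002 met the minimum of counts only through gemin2, so its calls between genotypes are a description. Over all 9366 introns tested, 4.77%, 13.5% and 16.5% were called at 22 °C, 1 h and 24 h, and a single intron of 8 says little against that. The median log2 difference of the 8 was -0.23 at 22 °C and 0.33 after 24 h, against 0.09 and 0.23 over all introns. In WT, none of the 8 was called between 22 °C and 1 h (background 5.86%) or 24 h (3.64%), and none had an unadjusted p under 0.05 in edgeR's test or a call in DESeq2. In gemin2, I014 was called at 1 h (background 7.1%), with I002 not tested, and I002 at 24 h (13%). I014 met the minimum of counts only through gemin2 after 1 h, so its call is a description. For the genotype by cold terms the count was 0 at 1 h (background 0.032%) and 0 at 24 h (0.545%) with edgeR and with DESeq2, and 1 intron had an unadjusted p under 0.05 in each.

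In the cold groups, ARF1 was also the member whose gene level stood highest in gemin2 relative to WT, whereas at 22 °C the differences of ARF5 (0.19) and ARF6 (0.24), none of them calls, were above that of ARF1 (0.15). At 22 °C the WT libraries had 44.2, 46.6 and 45.2 CPM and the gemin2 libraries 51.6, 50.1 and 49.4 CPM. After 1 h WT had 42.0, 42.2 and 42.9 CPM and gemin2 49.4, 50.6 and 47.1 CPM. After 24 h WT had 39.0, 38.7 and 38.3 CPM and gemin2 65.9, 64.5 and 69.1 CPM. The genotypes did not overlap at any time, and the gap was widest after 24 h.

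After 24 h the log2 difference was 0.78 ± 0.07 with an adjusted p of 5.05e-08 in edgeR's test. At 22 °C it was 0.15 ± 0.07 with an adjusted p of 0.1096, which is not a call, and after 1 h it was 0.21 ± 0.07 and was not tested. In WT, ARF1 fell by 0.23 ± 0.07 between 22 °C and 24 h with an adjusted p of 0.006567, whereas in gemin2 it rose by 0.40 ± 0.07 with an adjusted p of 2.989e-05. The difference between those changes was 0.63 ± 0.09 with an adjusted p of 1.739e-04 in edgeR's test of the interaction. With all reads of I002 taken off the gene count, ARF1 stood at 58.5 ± 0.532 CPM (SD, n = 3) in gemin2 after 24 h and at 38.6 ± 0.387 CPM in WT. Gene counts need not hold intron reads, and the part of I002 in the gene level was not tested.

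The other members called between genotypes were lower in gemin2, and each was called in a cold group. At 22 °C none of 10 members was called by edgeR or by DESeq2, where 21.1% of all genes were, and 4 had an unadjusted p under 0.05 in edgeR's test. ARF2 was nearest, with a log2 difference of -0.24 ± 0.09 and an adjusted p of 0.06733. After 1 h at 10 °C, 5 members were lower in gemin2, with ARF1 not tested, where 34.4% of all genes were called, 16.6% higher and 17.8% lower. After 24 h, ARF1 was higher and ARF3, ARF6 and ARF19 were lower, where 40.2% of all genes were called, 21.7% higher and 18.6% lower. The members called were thus fewer than the share of all genes at 22 °C, and close to it after 24 h with 4 of 10. After 1 h the 5 of 10 lower were above the share of all genes. These counts are a description of 10 genes chosen with earlier results known. The median log2 difference of the 10 was -0.02, -0.23 and -0.14 at 22 °C, 1 h and 24 h, against 0.00, 0.00 and 0.02 over all 21918 genes tested.

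Among the repressors, ARF2, which delays growth and sets the timing of leaf senescence, had 323, 318 and 269.6 CPM in WT after 1 h and 219, 203 and 206 CPM in gemin2. The log2 difference was -0.54 ± 0.09 with an adjusted p of 2.625e-04 in edgeR's test, and the groups did not overlap. ARF3 (ETTIN), which patterns the gynoecium and the lower side of leaves, had 45.3, 41.4 and 35.9 CPM in WT after 1 h and 30.001, 27.2 and 26.7 CPM in gemin2. Again no library overlapped, and the difference was -0.55 ± 0.13 with an adjusted p of 0.003957 in edgeR's test.

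After 24 h the ARF3 libraries of WT had 40.2, 28.4 and 25.0 CPM and those of gemin2 20.9, 16.7 and 17.9 CPM. The highest WT value belongs to library A, which stands apart, and the groups did not overlap. The difference was -0.75 ± 0.14 with an adjusted p of 2.568e-04 in edgeR's test, and without the 4 libraries that stand apart it was -0.67 with an adjusted p of 1.335e-04. ARF4, which acts with ARF3 in leaf polarity, had 55.2, 54.5 and 48.7 CPM in WT after 24 h and 47.5, 45.7 and 46.6 CPM in gemin2. The libraries did not overlap, but the difference of -0.18 ± 0.08 had an adjusted p of 0.08246 in edgeR's test and is not a call. ARF16, which shapes the root cap, differed by -0.08 ± 0.10, 0.02 ± 0.10 and 0.08 ± 0.10 between genotypes at 22 °C, 1 h and 24 h, with no call.

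Among the activators, ARF6, which with ARF8 governs flower maturation and stem elongation, had 124, 135 and 105 CPM in WT after 1 h and 99.8, 83.7 and 75.8 CPM in gemin2. The groups did not overlap, and the log2 difference was -0.49 ± 0.13 with an adjusted p of 0.007032 in edgeR's test. After 24 h, WT had 131, 101 and 107 CPM and gemin2 96.5, 77.3 and 84.3 CPM. That difference was -0.40 ± 0.13 with an adjusted p of 0.02025, again with no overlap. With edgeR the 1 h call was lost without C of gemin2 (-0.39, adjusted p = 0.05106). The 24 h call was lost without A of WT (-0.28, adjusted p = 0.1177), B of gemin2 (-0.32, 0.09327) or C of gemin2 (-0.38, 0.06004).

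ARF7, which drives phototropism and lateral roots, had 60.4, 65.4 and 54.2 CPM in WT after 1 h and 49.0, 45.9 and 47.7 CPM in gemin2. The difference was -0.34 ± 0.10 with an adjusted p of 0.01197 in edgeR's test. The groups did not overlap, but the call was lost without B of WT (-0.27, adjusted p = 0.07037) or B of gemin2 (-0.30, 0.05454). ARF8 had 45.6, 41.3 and 45.3 CPM in WT after 1 h and 37.2, 36.7 and 35.1 CPM in gemin2. The difference was -0.28 ± 0.07 with an adjusted p of 0.007288 in edgeR's test and no overlap, and the call was lost without C of gemin2 (-0.24, adjusted p = 0.05058).

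ARF19, which acts with ARF7 in lateral roots, had 8.55, 11.8 and 10.9 CPM in WT after 24 h and 7.20, 8.48 and 8.41 CPM in gemin2. The lowest WT library lay just above the highest of gemin2. The log2 difference was -0.38 ± 0.12 with an adjusted p of 0.018 in edgeR's test. It lost the call without B of WT (-0.28, adjusted p = 0.1117), C of WT (-0.35, 0.05658) or A of gemin2 (-0.31, 0.06575). ARF5 (MONOPTEROS), needed for embryo patterning and veins, differed by 0.19 ± 0.12, 0.07 ± 0.12 and 0.27 ± 0.12 at 22 °C, 1 h and 24 h and was not called.

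The labelled whole plants held markers of root, leaf, vessels and dividing tissue, and some of these moved with genotype. Over all genes, 21.1%, 34.4% and 40.2% were called between genotypes at 22 °C, 1 h and 24 h. Of 6 root markers, 5 were lower in gemin2 after 1 h, and their summed level ran from 90.9 to 103 CPM in WT and from 60.0 to 71.5 CPM in gemin2. After 24 h, 2 of 6 were lower, with sums of 63.4 to 74.5 CPM in WT and 52.6 to 58.7 CPM in gemin2. The 4 vascular markers had sums of 159 to 208 CPM in WT after 24 h and 97.7 to 110.5 CPM in gemin2, with 1 marker higher and 1 lower. At 22 °C and after 1 h 1 was also higher and 1 lower, with sums of 182 to 201 and 208 to 229 CPM in WT and of 151 to 164 and 148 to 168 CPM in gemin2. Of 4 markers of dividing tissue, 1 was higher and 1 lower in gemin2 after 24 h, with sums of 41.9 to 42.3 CPM in WT and 44.9 to 56.3 CPM in gemin2. The higher was CYCB1;1, a cyclin of dividing cells, whose mean was 16.4 CPM in gemin2 against 4.71 CPM in WT. The mean sums were 52.3 CPM in gemin2 and 42.1 CPM in WT, so the higher sum lay in that 1 gene. The sum is thus not read as a level of dividing tissue. A single root marker was lower at 22 °C, and the WT sums of 67.5 to 81.1 CPM lay above the gemin2 sums of 63.6 to 64.5 CPM. Of 4 leaf markers, 2 were lower in gemin2 at 22 °C and 2 after 1 h. None of the root, leaf, dividing tissue or vascular markers failed the filter on low counts. The floral sums were at most 1.52 CPM, with the means of AP1, AG and AP3 at or near 0, and the seed sums at most 7.39 CPM. The part of tissue makeup in the gene results above was not tested.

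**Figure D3:**
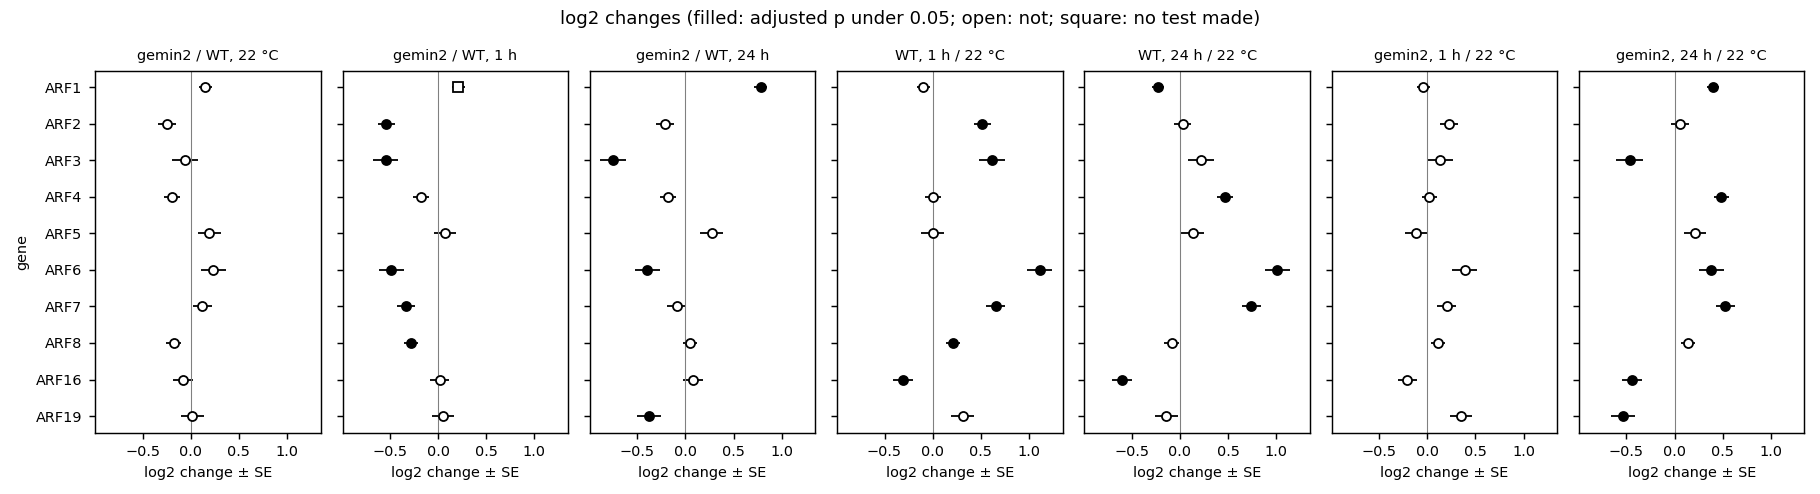
log2 change of each gene with its SE (horizontal axis) in 3 comparisons of gemin2 with WT and 4 of cold with 22 °C. Filled points have an adjusted p under 0.05 in edgeR's test, open circles do not, and the square (ARF1 after 1 h) was not tested. ARF6 in WT rises by 1.11 at 1 h and 1.01 at 24 h, and ARF1 is the only gene called higher in gemin2 at 24 h.

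Cold moved the members in WT within 1 h. Between 22 °C and 1 h, 5 members rose and 1 fell, where 25.6% of all genes were called in edgeR's test, 14.7% up and 10.8% down. ARF6 rose from 62.9, 49.5 and 55.9 CPM to 124, 135 and 105 CPM, a log2 change of 1.11 ± 0.13 with an adjusted p of 4.721e-06. ARF7 rose from 35.7, 42.7 and 36.0 CPM to 60.4, 65.4 and 54.2 CPM, by 0.66 ± 0.10 with an adjusted p of 8.139e-05. In both the groups were clear of each other. ARF3 rose by 0.61 ± 0.13 (adjusted p = 0.002748) and ARF2 by 0.52 ± 0.09 (adjusted p = 4.684e-04). ARF8 rose by 0.21 ± 0.08 with an adjusted p of 0.04699, and ARF16 fell by 0.31 ± 0.10 with an adjusted p of 0.03386. The root markers moved too, with 3 of 6 higher and sums of 67.5 to 81.1 CPM at 22 °C and 90.9 to 103 CPM after 1 h. The vascular sums went from 182 to 201 CPM to 208 to 229 CPM, with 1 of 4 markers higher. The part of either in these changes was not tested.

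The calls of ARF8 and ARF16 were lost in 8 and 6 of 11 alternatives. The ARF8 change lost its call without A (0.17, adjusted p = 0.1317) or C (0.19, 0.1398) of WT at 22 °C and without A (0.18, 0.1454) or C (0.19, 0.115) of WT after 1 h. It also did so with DESeq2 (0.18, adjusted p = 0.05912), and in edgeR with RLE factors (0.18, 0.07476), with no filter on low counts (0.21, 0.09856) and with only the groups compared (0.20, 0.1357). The ARF16 change lost its call without B of WT at 22 °C (-0.22, adjusted p = 0.1585). It also did so without A (-0.30, 0.08617), B (-0.33, 0.0645) or C (-0.29, 0.08217) of WT after 1 h, with no filter (-0.31, 0.05501) and with only the groups compared (-0.31, 0.06383).

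After 24 h in WT, 3 members rose and 2 fell against 22 °C, where 55.7% of all genes were called, 27.1% up and 28.6% down. ARF6 stayed up by 1.01 ± 0.13 (adjusted p = 2.425e-06) and ARF7 by 0.74 ± 0.10 (adjusted p = 3.254e-06). ARF4 rose from 38.0, 34.7 and 41.6 CPM to 55.2, 54.5 and 48.7 CPM, by 0.47 ± 0.08 with an adjusted p of 7.277e-05 in edgeR's test. ARF16 fell from 14.7, 17.8 and 15.2 CPM to 11.6, 10.2 and 9.71 CPM, by 0.60 ± 0.10 with an adjusted p of 6.588e-05. The libraries of the 2 temperatures did not overlap for either gene. The comparisons at 1 h and 24 h share the libraries at 22 °C. The leaf markers also moved, with summed levels of 66265 to 76674 CPM at 22 °C and 44258 to 48033 CPM after 24 h, and 3 of 4 lower. The sums of dividing tissue were 60.3 to 67.4 CPM and 41.9 to 42.3 CPM, with 2 of 4 lower. Their part in these changes was not tested.

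In gemin2, none of 10 members was called between 22 °C and 1 h by edgeR, where 9.43% of all genes were. There 3 had an unadjusted p under 0.05 and DESeq2 called 1. ARF6, for example, had 60.7, 67.4 and 70.2 CPM at 22 °C and 99.8, 83.7 and 75.8 CPM after 1 h, a difference of 0.39 ± 0.13 with an adjusted p of 0.06965. Its libraries did not overlap. After 24 h, 4 members rose and 3 fell, where 60.1% of all genes were called, 30.1% up and 30% down. There 3 of 4 leaf markers were lower, as were 2 of 4 vascular markers, with vascular sums of 151 to 164 CPM at 22 °C and 97.7 to 110.5 CPM after 24 h, and their part was not tested.

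The members that rose in gemin2 after 24 h were ARF7 (0.53 ± 0.10), ARF4 (0.49 ± 0.08), ARF1 (0.40 ± 0.07) and ARF6 (0.38 ± 0.13). The members that fell were ARF19 (-0.54 ± 0.12), ARF3 (-0.47 ± 0.14) and ARF16 (-0.44 ± 0.10). Adjusted p-values ran from 2.989e-05 for ARF1 to 0.01684 for ARF6 in edgeR's test. ARF6 lost its call without A of gemin2 at 22 °C (0.32, adjusted p = 0.07053) or A of gemin2 after 24 h (0.29, 0.08265). ARF19 went from 10.2, 12.3 and 12.6 CPM to 7.20, 8.48 and 8.41 CPM, and ARF3 from 25.3, 24.9 and 26.4 CPM to 20.9, 16.7 and 17.9 CPM, both without overlap.

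The change over 24 h of cold differed between genotypes for 3 of 10 members in the test of the interaction, where 13.9% of all genes were called, 7.34% upward and 6.52% downward. ARF1 had a difference of changes of 0.63, given above. ARF6 had -0.63 ± 0.18 with an adjusted p of 0.02781 and ARF3 -0.69 ± 0.19 with an adjusted p of 0.02214 in edgeR's test. For ARF3 the difference was -0.66 without C of gemin2 at 22 °C (adjusted p = 0.0504), -0.63 without B of gemin2 after 24 h (0.05606) and -0.67 without C of gemin2 after 24 h (0.05024). ARF6 lost its call without those same libraries (-0.59, -0.57 and -0.62, with adjusted p of 0.06765, 0.06536 and 0.05568). It also lost it without B of WT at 22 °C (-0.55, 0.07599), A of WT after 24 h (-0.51, 0.07369) or B of gemin2 at 22 °C (-0.62, 0.05631). At 1 h the count was 0 with edgeR (background 0.0912%) and 1 with DESeq2, and 4 members had an unadjusted p under 0.05 in edgeR's test. The largest of these was ARF6 at -0.72 ± 0.18 with an adjusted p of 0.153.

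Ordered by mean level over the 6 groups, ARF1 was highest in gemin2 after 24 h, followed by gemin2 at 22 °C and after 1 h, which overlapped. Then came WT at 22 °C, after 1 h and after 24 h, each clear of the next. ARF2 and ARF3 were highest in WT after 1 h. For ARF2 the next group did not overlap it, whereas for ARF3 WT after 24 h did. ARF6 had both WT cold groups on top, overlapping each other and clear of the next, gemin2 after 1 h. ARF4 was highest in WT after 24 h and then in gemin2 after 24 h, with no overlap between them or with the group below. ARF5 overlapped between all neighbours in the order. ARF7 was led by 3 overlapping groups, WT after 24 h, WT after 1 h and gemin2 after 24 h. ARF8 was highest in WT after 1 h and lowest in gemin2 at 22 °C, each clear of its neighbour. ARF16 fell into 3 steps by time, 22 °C, 1 h and 24 h, with the genotypes overlapping within each. ARF19 was highest in the 1 h groups of both genotypes, which overlapped, and lowest in gemin2 after 24 h.

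Splicing was also measured in bins, stretches of a gene that the authors' annotation marks as alternative, and 9 of 11 bins of the members had enough counts to test. How reads that only touch a bin were counted is not stated, so shares of bins are not read against their length. The ARF2 bin E002, marked as a retained intron (IR), spans 102 bases ahead of the start codon at chr5:24910611-24910712 on the plus strand. It is exonic in 2 of 5 RefSeq transcripts and intronic in 3, and its ends are shown, with capitals as before, because they are those of an intron.
ARF2 E002 start: gagGTGAAAttg
ARF2 E002 end: gtggtgattgtgtttgtTAG

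E002 held 0.442%, 0.595% and 0.624% of the ARF2 count in WT at 22 °C and 0.744%, 0.628% and 0.642% in gemin2. After 24 h it held 0.988%, 1.41% and 1.28% in WT and 2.58%, 1.93% and 2.13% in gemin2. All libraries after 24 h were above all at 22 °C, and after 24 h the genotypes did not overlap. The share rose over 24 h by 1.16 ± 0.22 on the log2 scale in WT (adjusted p = 0.006707) and by 1.71 ± 0.20 in gemin2 (adjusted p = 1.28e-05). After 24 h gemin2 was above WT by 0.83 ± 0.18 with an adjusted p of 0.006135 in edgeR's test. Without the 4 libraries that stand apart this was 0.59 with an adjusted p of 0.09257, which is not a call.

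Near the other end of ARF2, E017 is marked as an alternative 5′ site and E018 as an alternative 3′ site, on either side of the intron I016. E017 spans 115 bases at chr5:24914606-24914720 and E018 3 bases at chr5:24914814-24914816. E017 held 20.3%, 20.8% and 14.8% of the gene count in WT after 1 h and 13.8%, 11.3% and 11.6% in gemin2. At 22 °C it held 14.2%, 12.9% and 11.1% in WT. WT after 1 h was clear of both, though its library C came close to them.

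E017 was lower in gemin2 after 1 h by 0.61 ± 0.13 on the log2 scale (-0.61, adjusted p = 0.006816 in edgeR's test), and E018 differed by -0.93 ± 0.22 (0.01174). In WT both rose between 22 °C and 1 h, E017 by 0.55 ± 0.13 (adjusted p = 0.02281) and E018 by 0.88 ± 0.23 (0.02797). The 2 bins flank the same intron and may share reads, so they are not separate evidence. The E017 difference of genotypes lost its call without B of WT after 1 h (-0.52, adjusted p = 0.05422). That of E018 lost it without A (-0.88, 0.0525) or B (-0.83, 0.0725) of WT, or B (-0.80, 0.07981) or C (-0.80, 0.07554) of gemin2.

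The cold changes of both bins in WT lost their calls without B or C of WT at 22 °C, or A or B of WT after 1 h. Adjusted p-values in those edgeR fits ran from 0.07283 to 0.1313, with changes of 0.46 to 0.56 for E017 and 0.76 to 0.85 for E018. In ARF6 the bin E014, an alternative 3′ site of 6 bases at chr1:10689902-10689907 on the minus strand, held 1.05%, 1.14% and 1.16% of the gene count in WT after 1 h. In gemin2 it held 1.56%, 2.93% and 1.78%, above WT by 0.88 ± 0.27 with an adjusted p of 0.04921 in edgeR's test. It lost the call without A (0.85, adjusted p = 0.1421), B (0.90, 0.1449) or C (0.91, 0.08625) of WT, and without B (0.56, 0.3374) or C (0.97, 0.08284) of gemin2. It was also lost with no host gene offset (0.40, adjusted p = 0.3337), with a minimum mean of 3 counts (0.88, 0.05196) and with only the groups compared (0.88, 0.06365), 8 of 12 alternatives in all.

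**Figure D4:**
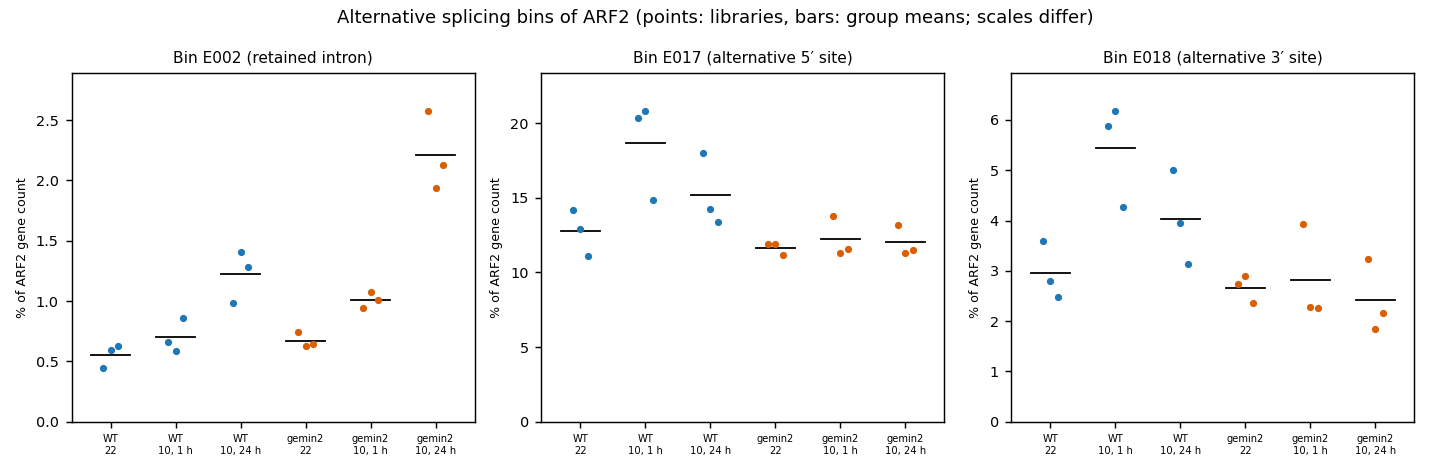
Share of the ARF2 gene count in each of its 3 bins (vertical axis, percent, from 0, own scale per panel) in every library. Points are libraries and bars are means of 3. E002 reaches 1.93% to 2.58% in gemin2 after 24 h, while E017 and E018 are highest in libraries A and B of WT after 1 h.

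In counts, 3 bins were called between genotypes after 1 h (background 8.58%), where the 3 bins of ARF1 were not tested, and 1 of 9 after 24 h (5.8%). In WT, 2 of 9 were called at 1 h (background 5.54%) and 1 of 9 at 24 h (2.94%), and in gemin2 1 of 9 at 24 h (4.33%). No bin was called by edgeR between genotypes at 22 °C (background 2.55%), where 1 had an unadjusted p under 0.05 and DESeq2 called 1. None was called in gemin2 at 1 h (background 0.578%), with 1 unadjusted and 0 in DESeq2. None was called for the genotype by cold terms at 1 h (background 0%) or at 24 h (0.0525%), where 2 and 1 had an unadjusted p under 0.05 and DESeq2 called 0.

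Most introns of the members had too few counts for the main test. With a minimum mean of 3 counts in place of 10, 34 introns of the members could be tested by edgeR among 28698. In that test 3 introns other than I002 of ARF1, which was not tested there, were called between genotypes after 1 h (background 6.22%), and 4 of 34 were after 24 h (10.2%). I002 of ARF1, I004 of ARF7, I010 of ARF4, I003 of ARF16 and I005 of ARF6 averaged under 3 counts in the WT libraries and met the minimum only through gemin2. The filter thus favours higher values in gemin2, and the direction and number of these introns are given as a description. At 22 °C 2 of 34 were called (background 1.7%), I002 of ARF1 higher and I007 of ARF4 lower, and in gemin2 over 24 h 2 of 34 (6.57%). I002 of ARF1 is 1 of the count at 22 °C, after 24 h and in gemin2 over 24 h.

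The intron of ARF7 called after 1 h, I004 at chr5:7019220-7019296 on the minus strand, lies in the coding part. It held 0, 0 and 0 counts in WT at 22 °C, 1, 0 and 1 after 1 h and 5, 4 and 7 after 24 h. In gemin2 it held 4, 2 and 5 counts at 22 °C, 13, 9 and 19 after 1 h and 12, 14 and 21 after 24 h. At every time all gemin2 libraries were above all WT libraries of that time. The difference after 1 h was 4.01 ± 0.80 on the log2 scale with an adjusted p of 9.864e-04 in edgeR's test, resting on 2 counts over WT, for an intron that met the minimum only through gemin2.

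In ARF16 the intron I003 spans 593 bases ahead of the start codon at chr4:14705585-14706177 on the minus strand. After 1 h it held 0, 1 and 6 counts in WT and 8, 15 and 8 in gemin2, and as shares of the gene count the genotypes overlapped. After 24 h it held 1, 1 and 1 counts in WT and 6, 11 and 9 in gemin2, with no overlap. At 22 °C it held 0, 0 and 0 counts in WT, which allows shares of up to 0.958% to 1.06% per library, and 3, 0 and 1 in gemin2. After 24 h the log2 difference between genotypes was 3.03 ± 0.91 with an adjusted p of 0.02514 in edgeR's test, resting on 3 counts over WT, again for an intron that met the minimum only through gemin2. Within gemin2 the intron rose over 24 h by 3.17 ± 0.85 with an adjusted p of 0.01656.
ARF7 I004 start: cagGTAAATttt
ARF7 I004 end: aatttccggtgctcttgCAG
ARF16 I003 start: cagGTTTGAact
ARF16 I003 end: atttgtatttgttgttgCAG
These ends are shown beside those of ARF1, with capitals as before. The 6 bases that begin I004 of ARF7 begin 2.75% of all introns read, and those of I003 of ARF16 begin 0.646%.

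The other introns called with the lower minimum were I009 of ARF3 (2.09 ± 0.63, adjusted p = 0.03715) and I010 of ARF4 (2.78 ± 0.84, 0.03672) after 1 h. After 24 h they were I005 of ARF6 (2.21 ± 0.70, adjusted p = 0.03331) and I012 of ARF2 (2.09 ± 0.64, 0.02843). Of these, I010 of ARF4 and I005 of ARF6 met the minimum only through gemin2, so their values are given as a description. I009 of ARF3 had 7, 8 and 3 counts in WT at 22 °C and 4, 4 and 0 after 1 h. In gemin2 it had 15, 11 and 15 counts at 22 °C and 14, 13 and 7 after 1 h. After 24 h it had 8, 19 and 9 counts in WT and 7, 3 and 11 in gemin2. As shares of the ARF3 count, the genotypes overlapped at 22 °C (0.531% to 1.91% in WT and 1.32% to 2.05% in gemin2) and after 24 h (1.03% to 1.47% and 0.610% to 1.97%). After 1 h they did not, with 0% to 0.411% in WT and 0.739% to 1.28% in gemin2. I007 of ARF4 went the other way at 22 °C, with 7, 6 and 7 counts in WT and 1, 1 and 0 in gemin2, a difference of -3.63 ± 0.91 with an adjusted p of 0.02404.

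**Figure D5:**
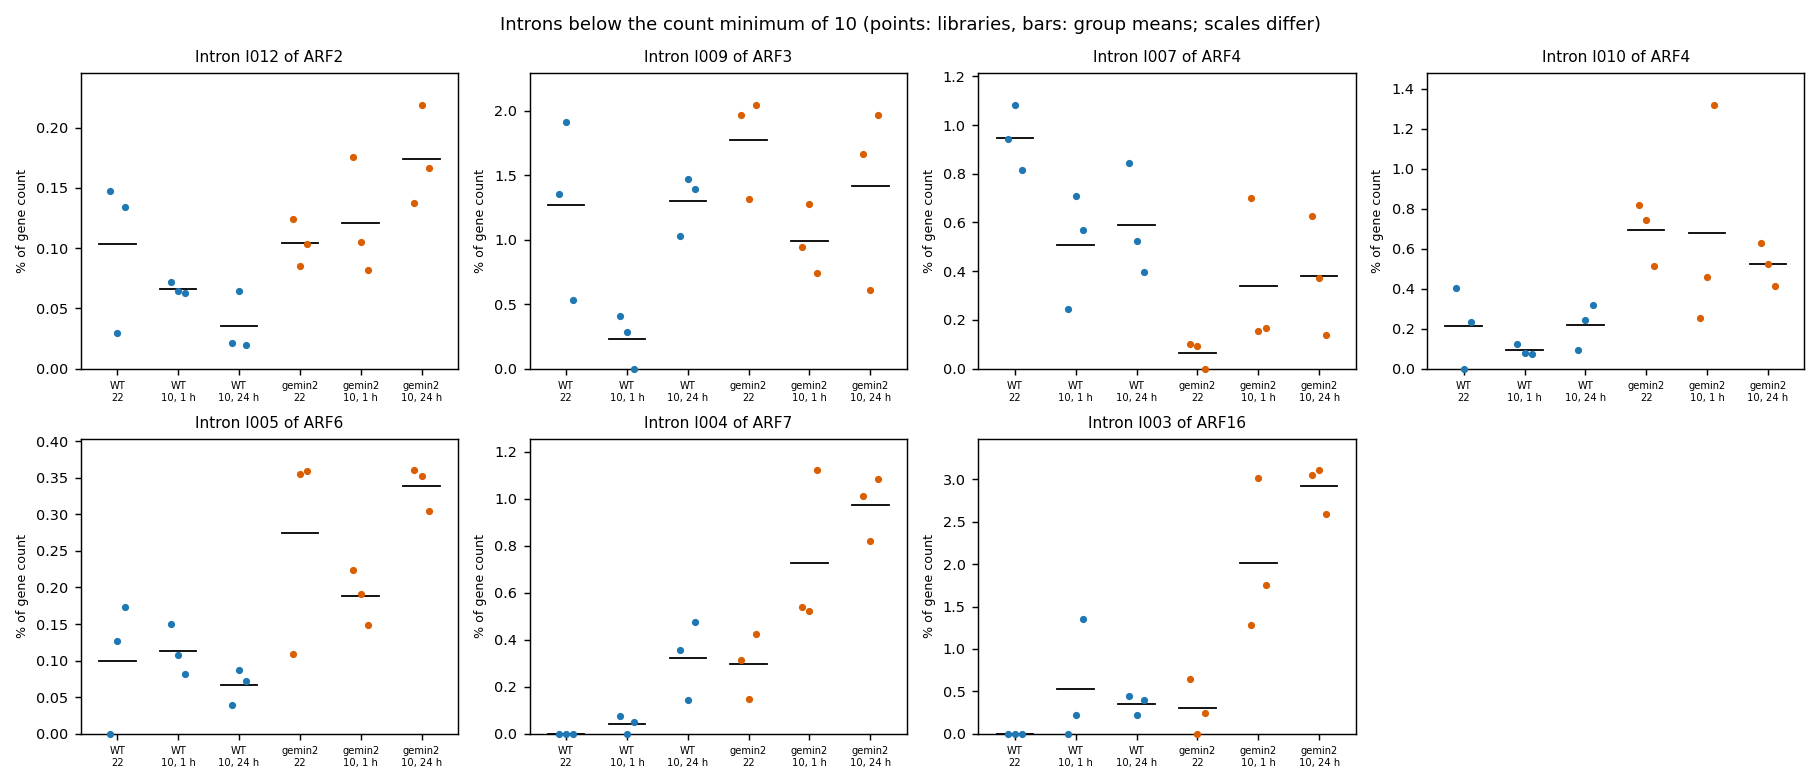
Share of the gene count in the 7 introns that were called only with the lower count minimum (vertical axis, percent, from 0, own scale per panel) in every library. Points are libraries and bars are means of 3. I003 of ARF16 sits at 2.59% to 3.11% in gemin2 after 24 h, and I007 of ARF4 is lowest in gemin2 at 22 °C.

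Elsewhere in the auxin pathway, changes between genotypes went both ways. Over all genes, 21.1%, 34.4% and 40.2% were called at 22 °C, 1 h and 24 h, in either direction. The counts of this list and of those below are a description to be read against these shares. Of 28 Aux/IAA genes tested of 29, 0 were higher and 5 lower in gemin2 at 22 °C, 3 and 6 after 1 h, and 3 and 4 after 24 h. IAA14, a repressor of lateral roots, was lower at all 3 times, by -0.84, -1.12 and -0.99 on the log2 scale, with adjusted p-values from 3.801e-04 to 0.00694 in edgeR's test. IAA12, the partner of ARF5, was lower at 22 °C (-0.34, adjusted p = 0.003351) and after 1 h (-0.47, 9.93e-05). IAA28 was lower at 22 °C (-0.73, adjusted p = 0.01785), IAA17 after 1 h (-0.54, 5.401e-04) and IAA27 after 24 h (-0.42, 0.002213), and IAA2 was higher after 24 h (0.55, 0.001122). The median log2 differences of the Aux/IAA genes were -0.18, -0.14 and -0.01, against 0.00, 0.00 and 0.02 over all genes.

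Of 11 genes for receptors and corepressors, 3 were lower at 22 °C and 5 after 1 h, with none higher, and 3 were lower and 2 higher after 24 h. TPR1, a corepressor of the TOPLESS family, was at 47.8, 54.2 and 57.4 CPM in WT and at 30.1, 33.6 and 30.9 CPM in gemin2 at 22 °C, 1 h and 24 h. The differences were -0.67, -0.69 and -0.90, with adjusted p-values of 2.057e-05, 8.279e-06 and 1.868e-07 in edgeR's test. TPR3 was lower at 22 °C (-0.70, adjusted p = 2.244e-04) and after 1 h (-0.80, 2.825e-05), and so was TPL (-0.32, 0.03306, and -0.50, 0.001084). After 24 h TIR1, an auxin receptor, was lower (-0.74, adjusted p = 5.649e-04) and TPR4 was higher (0.55, 1.688e-05). The medians of this list were -0.05, -0.08 and -0.01.

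Of 12 auxin response genes tested of 14, 1 was higher and none lower at 22 °C, 3 and 2 after 1 h, and 2 and 4 after 24 h. ACS4, an enzyme of ethylene synthesis, was higher at 22 °C (2.47, adjusted p = 0.01993). After 1 h GH3.5 (0.56, adjusted p = 0.004946) and GH3.6 (0.48, 0.007492), which conjugate auxin to amino acids, were higher, and ATHB8, a marker of forming veins, was lower (-0.35, 0.01182). After 24 h GH3.3 (-1.09, adjusted p = 3.234e-05) and GH3.1 (-1.50, 0.004595) were lower and TMO5, a target of ARF5, was higher (0.47, 7.728e-04). The medians were 0.06, 0.29 and -0.15.

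The other ARF genes were tested in 5 of 13 cases, with 2 higher and 1 lower at 22 °C and after 1 h, and 2 lower after 24 h. ARF10, which like ARF16 is a target of miR160, was lower at all 3 times, by -0.47, -0.58 and -0.45, with adjusted p-values from 1.611e-04 to 0.002014 in edgeR's test. ARF17, also a miR160 target, was lower after 24 h (-0.50, adjusted p = 0.002747). ARF9 and ARF11 were higher at 22 °C (0.54, adjusted p = 0.005236, and 0.53, 0.006789) and after 1 h (0.52, 0.003318, and 0.37, 0.02948).

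Of 18 genes of the small RNA pathway, 9 could be tested, with 1 lower after 1 h and 2 lower after 24 h. At 22 °C edgeR called 0 of 9 and DESeq2 0, and 0 had an unadjusted p under 0.05 in edgeR. Counts over these genes come from poly(A) RNA and are not levels of the mature small RNAs printed above. The MIR167D transcript was at 0.984 ± 0.316 CPM (SD, n = 3) in WT after 24 h and at 0.0759 ± 0.0673 CPM in gemin2, a log2 difference of -3.69 ± 0.59 with an adjusted p of 7.938e-05 in edgeR's test. At 22 °C it was at 0.839 ± 0.428 and 0.869 ± 0.247 CPM. MIR167A was lower in gemin2 after 1 h (-1.51, adjusted p = 0.02636), with 1.10 ± 0.509 CPM in WT and 0.392 ± 0.113 CPM in gemin2. AGO1, the protein that carries most miRNAs, was lower after 24 h (-0.34, adjusted p = 0.004082). The TAS3A transcript was at 6.67 ± 1.63 CPM in WT after 24 h and 6.52 ± 1.60 CPM in gemin2, a difference of -0.05 ± 0.19 with an adjusted p of 0.8635. In WT it fell over 24 h in the cold by 1.13 ± 0.18 with an adjusted p of 3.234e-05. Its change in gemin2 is not given, so the fall is not read as particular to WT.

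Set beside the small RNA groups, the miR167 pair ARF6 and ARF8 were both lower in gemin2 after 1 h, and after 24 h ARF6 differed by -0.40 and ARF8 by 0.05. Of the genes with the TAS3 site, ARF2, ARF3 and ARF4 differed by -0.54, -0.55 and -0.18 after 1 h and by -0.21, -0.75 and -0.18 after 24 h. ARF16 differed by 0.02 and 0.08. Whether members of a group differed from each other was not tested.

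Over the 18 libraries, the level of a member was described by Pearson's r of log2(CPM + 1) with every other gene tested, with depth, genotype and cold shared by all points. Among members the closest pair was ARF6 with ARF7 (r = 0.853), then ARF2 with ARF3 (r = 0.847) and ARF8 with ARF2 (r = 0.784). The most opposed pair was ARF1 with ARF3 (r = -0.766), followed by ARF4 with ARF16 (r = -0.744). The gene most like ARF1 was AT2G42270 (r = 0.974), that most like ARF6 was NEV (AT5G54310, r = 0.961), and that most like ARF7 was CIPK4 (AT4G14580, r = 0.948). For ARF5 it was CHR24 (AT5G63950, r = 0.877), the lowest of the 10. The genes closest to ARF2, ARF3, ARF4, ARF8, ARF16 and ARF19 were AT1G10850 (r = 0.946), AT1G04680 (0.957), AT5G35400 (0.967), AT1G05870 (0.884), AT1G53190 (0.939) and AT4G25835 (0.943).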

How the data were processed

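Poly(A) RNA libraries were aligned by the authors with TopHat2 2.0.9 to TAIR10 and handled in R 3.0.2 with edgeR 3.4.2, per the submitters' processing notes. Neither the read counter nor any strand setting is named in those notes or the labels. The deposited values used are whole-number counts per gene, intron and alternative splicing bin. Columns carry letters that no source ties to replicate numbers, so each was mapped to its group only. Members, lists and the rule for named genes were chosen with earlier results of these data known.

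Tests were edgeR 4.0.16 quasi-likelihood tests over all 6 groups (R 4.3.3), with TMM factors and filterByExpr for genes. Introns and bins had the log count of their gene as offset, and needed a mean of 10 counts, with a mean of 50 and at least 10 in every library for the gene. SE was taken from the change and its F statistic. A floor is 3 counts. Every tested member region past the threshold is named, and up to 3 genes of each pathway list per genotype comparison by smallest adjusted p. TAS3A is named outside this rule. Alternatives were DESeq2 1.42.0, RLE factors, other filters, no offset, only the groups compared, the library letter as a replicate block, and leaving out each library. Fits were tried on simulated counts. Of 117671 introns read from RefSeq TAIR10.1 at the deposited positions, 98.73% had GT and AG ends. The authors' own comparison tables were not used.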

Additional observations from a re-analysis of the deposited data

Results flagged for a closer look

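For 3 genes the change over 24 h at 10 °C differed between gemin2 and WT in edgeR's test of the interaction itself. ARF1 had a difference of log2 changes (gemin2 less WT) of 0.63, with all 3 gemin2 libraries after 24 h above, and all 3 WT libraries below, those of their genotype at 22 °C. ARF6 had -0.63, with all 3 cold libraries above those at 22 °C in both genotypes. ARF3 had -0.69, with all 3 gemin2 libraries lower after 24 h than at 22 °C and the WT groups overlapping. The call of ARF6 was lost in 6 of 18 alternatives and that of ARF3 in 3 of 18, whereas that of ARF1 was lost in 0.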

How the results depend on the processing

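Of 357 counts of members called under an alternative, 300 stayed within 1.5 times the reported count and 57 did not. Of 514 changes of single genes, introns or bins under an alternative, 451 stayed on the same side of the threshold, 63 lost their call and 0 changed direction. The cause of the moves was not tested. Intron counts after 1 h between genotypes and in gemin2 include I002 of ARF1 where it was past the threshold, which is no test of it.

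With DESeq2 the count became 1 gene for gemin2 over 1 h of cold, 1 gene for the genotype by cold term at 1 h, 2 introns between genotypes at 22 °C and 2 introns in gemin2 over 24 h. It became 1 bin between genotypes at 22 °C, 2 bins after 24 h and 2 bins in WT over 24 h. With a mean of at least 3 counts, introns became 2 at 22 °C, 4 after 1 h and 4 after 24 h between genotypes, and 2 in gemin2 over 24 h. With no host gene offset, introns became 3 after 1 h and 2 after 24 h between genotypes and 3 in gemin2 over 24 h. Bins then became 4 after 24 h between genotypes, 5 and 3 in WT over 1 h and 24 h, 1 and 2 in gemin2 over 1 h and 24 h, and 1 for the genotype by cold term at 24 h. With only the groups compared, the counts between genotypes became 1 gene at 22 °C, 3 introns after 1 h and 1 bin at 22 °C. Without the 4 libraries that stand apart, an alternative chosen after seeing the data, they became 1 gene and 1 bin for the genotype by cold term at 1 h, 2 introns between genotypes after 1 h and 1 intron in gemin2 over 1 h.

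The letters were not used to pair libraries in the main tests, since no source says what libraries of a letter share. Whether a letter marks a batch was not tested. Deviations of libraries with the same letter correlated from -0.194 to 0.632 over 45 pairs, with a median of 0.115, and those with different letters from -0.467 to 0.340 over 90 pairs, with a lower median of -0.0867. With the letter as a replicate block the counts became 1 gene between genotypes at 22 °C, 2 genes in gemin2 over 1 h and 1 gene for the genotype by cold term at 1 h. They became 3 introns between genotypes after 1 h, 1 bin at 22 °C, 3 bins after 24 h, and 2 bins in WT over 24 h.

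Leaving out 1 library at a time gave 0 to 1 genes between genotypes at 22 °C, 0 to 1 in gemin2 over 1 h and 1 to 3 for the genotype by cold term at 24 h. It gave 1 to 2 introns at 22 °C and 1 to 3 after 1 h between genotypes, and 0 to 2 in gemin2 over 1 h. It gave 0 to 1 bins at 22 °C, 0 to 3 after 1 h and 1 to 2 after 24 h between genotypes, and 0 to 2 in WT over 1 h. The ARF1 change in WT over 24 h had an adjusted p of 0.05164 in edgeR, and the ARF19 difference after 24 h one of 0.05137, with only the groups compared. Most member introns had too few counts to test at this depth.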
